A study of Mus musculus with 2 samples.

Results

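Notch signaling genes were examined in mouse brain before birth, in the subventricular zone (SVZ), which lies near the ventricle, and in the cortex. The set held 10 genes, taken by symbol from the 24411 genes listed for each library: the 3 receptors *Notch1*, *Notch2* and *Notch3*, the 3 ligands *Dll1*, *Dll3* and *Jag1*, and the 4 transcription factors *Hes1*, *Hes5*, *Hes6* and *Hey1*, called effectors here. All 10 were found and all had reads in both libraries. Fresh-frozen brains of embryonic day 16.5 were sectioned, and each area was cut out of stained sections by laser capture microdissection (LCM), in which a laser frees a chosen piece of tissue under the microscope, and profiled by bulk RNA-seq. There was 1 SVZ library, with 51435667 reads in genes, and 1 cortex library, with 22050693. No treatment is named for either, and the sources used here give no genotype, no strain and no number of embryos behind a piece.

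With 1 library per area there was no replicate and no test between the areas. Levels are in CPM, the reads of a gene after scaling both libraries to the same total of reads in genes, and the comparison is the log2 ratio of SVZ to cortex CPM. Each ratio carries an exact (Clopper-Pearson) 95% interval of the read counts. Reads had no molecular identifiers, so the intervals cover counting error only and not the differences between embryos, sections or cuts. A piece of tissue with fewer cells of a type and one with less RNA per cell cannot be told apart in such bulk samples.

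Notch receptors sit in the membrane of one cell and are activated by ligands on its neighbour. Activation cuts the receptor, and its inner part enters the nucleus, binds the DNA-binding protein Rbpj and switches on *Hes* and *Hey* genes, whose products repress the proneural genes that drive neuron formation. In the developing cortex this keeps radial glia, the apical progenitors, dividing, while newborn neuronal cells express *Dll1* and *Dll3*. *Hes6* stands apart from the other effectors: it is a relative that promotes neuronal differentiation and opposes *Hes1*.

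Progenitor markers were higher in the SVZ library and neuron markers in the cortex library, and apical progenitors were not told apart by layer. The 8 apical progenitor markers summed to 6409 CPM in SVZ against 133 CPM in cortex, where *Hopx* was at 0, and all 7 that reached a mean of 1 CPM were higher in SVZ. The 5 intermediate progenitor markers, among them *Eomes*, summed to 1019 and 59.4 CPM, with 5 higher in SVZ. The 10 neuron markers, such as *Mapt* and *Gap43*, summed to 2303 and 9902 CPM, with 10 higher in cortex and *Nefl* at 0 in SVZ. The progenitor markers therefore move with the Notch genes below, and their part in those differences was not tested.

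As a group the Notch genes lay towards the SVZ. The ratio was above 0 beyond counting error for 9 of the 10 genes, against 45.4% of the 15847 genes with a ratio, and below 0 for 1 gene, *Dll3*, against 36.1%. A 4-fold or larger difference towards SVZ was found for 6 of the 10 (*Hes5*, *Notch2*, *Notch1*, *Hes1*, *Jag1* and *Hey1*), against 11.8% of all genes with a ratio, and one of that size towards cortex for 0, against 9.30%. Under a minimum of 10 CPM averaged over both libraries 8 of the 10 genes passed, *Notch3* and *Dll3* being too low, and the shares over the 9027 passing genes were 6.75% and 4.70% in the same directions. Only *Hes6* and *Hey1* reached 10 CPM in the cortex library, so that most genes passed through the SVZ library. No count over the passing ones is read as a result. The median over the 10 genes was 2.55 on the log2 scale, beside 0.10 over the 9027 genes.

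**Figure D1:**
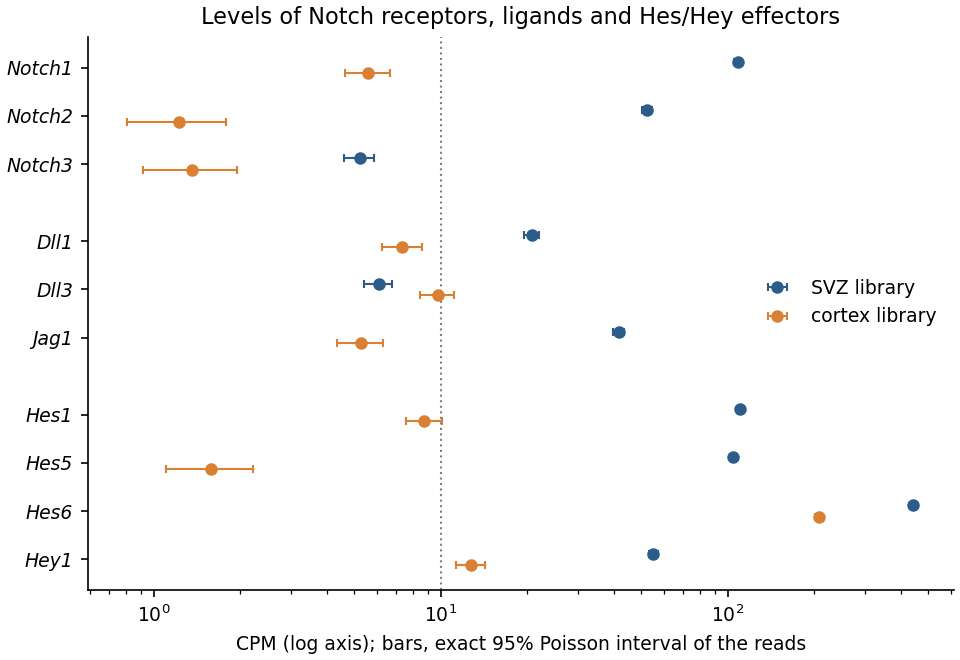
CPM of the 10 Notch genes on a log axis, with a blue point for the SVZ library and an orange point for the cortex library, bars for the exact 95% Poisson interval of the reads and a dotted line at 10 CPM. The blue point lies to the right for each gene except *Dll3* (6.07 CPM in SVZ, 9.75 CPM in cortex), and *Hes6* is the most counted gene in both libraries.

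The receptors differed most as a family. Their summed level was 166 CPM in SVZ against 8.16 CPM in cortex, a 20.3-fold difference. *Notch1*, a receptor of radial glia (GRCm38 chromosome 2, 26457903 to 26516663, minus strand), gave 5569 SVZ reads (108 CPM) and 123 cortex reads (5.58 CPM). It was 19.4-fold higher in SVZ, with a log2 ratio of 4.28 (interval 4.02 to 4.55). *Notch2* (chromosome 3, 98013527 to 98150361, plus strand), a second receptor of neural progenitors, gave 2692 reads (52.3 CPM) against 27 (1.22 CPM), which made it 42.7-fold higher in SVZ at a log2 ratio of 5.42 (4.87 to 6.02).

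*Notch3* (chromosome 17, 32120820 to 32166852, minus strand), which is also the receptor of pericytes and vascular smooth muscle, was the least expressed receptor of the SVZ library. It had 268 reads there (5.21 CPM) and 30 in cortex (1.36 CPM), a 3.83-fold difference with a log2 ratio of 1.94 (1.39 to 2.53). The interval spans 4-fold. Relative to *Notch3*, *Notch2* was 11.2 times and *Notch1* 5.07 times more abundant in SVZ than in cortex (log2 3.48, interval 2.71 to 4.25, and 2.34, 1.74 to 2.94). Such a ratio of ratios does not depend on how the libraries are scaled. Markers of mural cells, the pericytes and smooth muscle of vessels, summed to 112 CPM in SVZ and 77.0 CPM in cortex, with 7 of the 10 markers at a mean of 1 CPM or more, 5 of these higher in SVZ, and a median log2 ratio of 0.61. *Rgs5* had 69.6 and 45.5 CPM, and *Pdgfrb* 5.05 and 4.08 CPM (log2 ratio 0.31, -0.04 to 0.67). The 2 markers lower in SVZ were *Abcc9* (-0.16, -0.44 to 0.12) and *Higd1b* (-0.17, -0.45 to 0.12). *Des* had 3 SVZ and 0 cortex reads and got no ratio. The part of mural cells in the *Notch3* difference was not tested.

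The ligands did not move as 1 group. *Jag1* (chromosome 2, 137081456 to 137116644, minus strand), a Serrate-type ligand, had 2144 SVZ reads (41.7 CPM) and 116 cortex reads (5.26 CPM). This was 7.92-fold higher in SVZ (log2 ratio 2.99, 2.72 to 3.27). *Dll1* (chromosome 17, 15367354 to 15376872, minus strand), the Delta ligand that differentiating cells present to progenitors, had 1067 reads (20.7 CPM) and 162 (7.35 CPM). It was 2.82-fold higher in SVZ, with a log2 ratio of 1.50 (1.26 to 1.75).

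*Dll3* (chromosome 7, 28293553 to 28302238, minus strand), a Delta relative that does not activate receptors on neighbouring cells, went the other way. It had 312 SVZ reads (6.07 CPM) and 215 cortex reads (9.75 CPM), 1.61-fold higher in cortex, with a log2 ratio of -0.68 (-0.94 to -0.43). When ratios were centred on genes of like transcript length and GC content the value was -0.10 with an interval of -0.36 to 0.16, so that the difference was then no longer beyond counting error. The distance to the other ligands is larger: *Dll1* relative to *Dll3* was 4.54 times and *Jag1* relative to *Dll3* 12.7 times more abundant in SVZ than in cortex (log2 2.18, 1.84 to 2.53, and 3.67, 3.30 to 4.04).

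The effectors spread over the widest range of ratios. *Hes5* (chromosome 4, 154960923 to 154962371, plus strand), the Notch target most tied to radial glia, had 5355 SVZ reads (104 CPM) and 35 cortex reads (1.59 CPM). It was 65.6-fold higher in SVZ, with a log2 ratio of 6.04 (5.56 to 6.56), the highest of the 10 genes. *Hes1* (chromosome 16, 30064384 to 30067796, plus strand), the repressor that shares its role in keeping progenitors undifferentiated, had 5669 reads in SVZ (110.2 CPM) and 193 reads in cortex (8.75 CPM). Its log2 ratio of 3.65 (3.45 to 3.87) is a 12.6-fold difference, and *Hes5* relative to *Hes1* was 5.21 times more abundant in SVZ than in cortex (log2 2.38, 1.86 to 2.90).

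*Hey1* (chromosome 3, 8663359 to 8667256, minus strand), a Hes relative and Notch target, gave 2825 reads (54.9 CPM) in SVZ and 280 (12.7 CPM) in cortex. At 4.33-fold and a log2 ratio of 2.11 (1.94 to 2.30) it lay at the 4-fold line within counting error. *Hes6* (chromosome 1, 91411483 to 91414038, minus strand) was the most counted of the 10 genes in both libraries, with 22675 SVZ reads (441 CPM) and 4578 cortex reads (208 CPM). Its log2 ratio of 1.09 (1.04 to 1.13), 2.12-fold, was the lowest of the effectors, and *Hes5* relative to *Hes6* was 30.9 times more abundant in SVZ than in cortex (log2 4.95, 4.47 to 5.43). Among the 12 pairs of genes within a family, the interval of the ratio of ratios excluded 0 for 12. Each pair was ordered by ratio, the pairs share genes, and no like share over pairs of all genes was computed. The count is therefore not read as a result about the set.

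**Figure D2:**
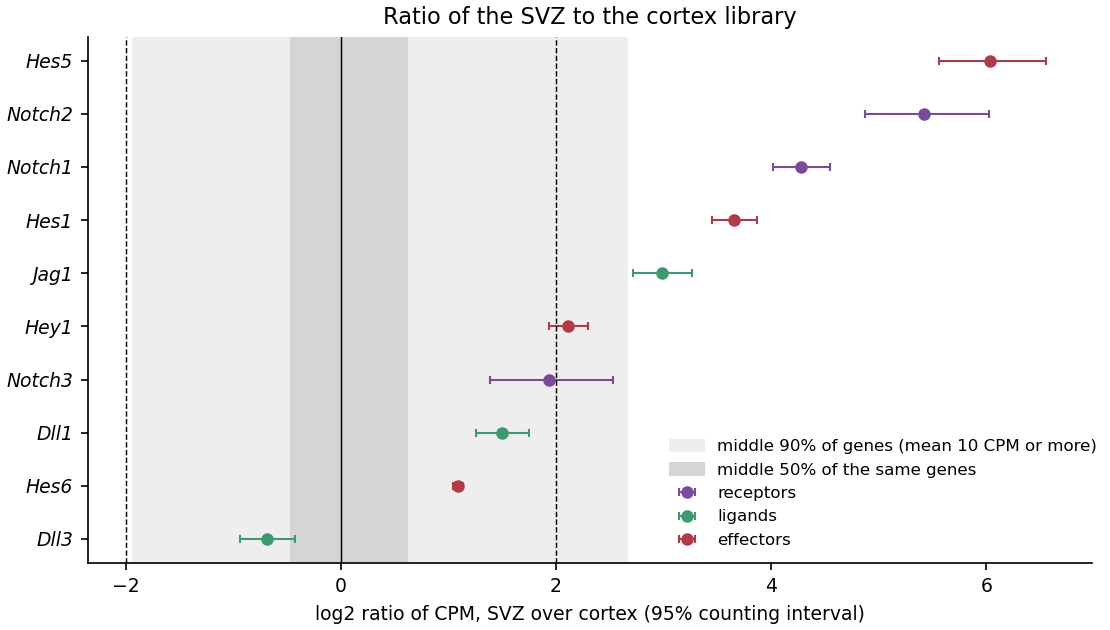
Log2 ratio of SVZ to cortex CPM for the 10 Notch genes in order, with 95% counting intervals, colored by family. Grey bands hold the middle 90% and 50% of the 9027 genes past the 10 CPM minimum, and dashed lines mark 4-fold. *Hes5* has the highest ratio (6.04), and *Dll3* (-0.68) is the only gene left of 0.

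Upstream sequences were searched to show what the members share in the bases before their start sites. RefSeq windows on GRCm38.p6 matched 8 of the 10 genes, *Hes6* and *Dll1* with more than 1 start site, which gave 10 windows. *Hes1* and *Hey1* had no window. Some RefSeq start sites, such as that of *Notch1*, lie inside the longer GENCODE gene given above. Each window was cut to the 250 bases before the start site, and both strands were read. The letters TGGGAA, the core of the site that Rbpj binds, occurred in 1 of the 10 windows, that of *Hes5*, which held them at -226 to -221 (on the opposite strand, as TTCCCA) and at -82 to -77. Of 32851 RefSeq windows of this length 21.6% held TGGGAA and 2.77% held it at least 2 times. The *Hes5* window (chr4:154960673-154960922, plus strand) is shown because *Hes5* had the highest ratio, with the TGGGAA matches in capitals. An antisense noncoding gene, Gm20421, has an exon that overlaps the window.
Hes5: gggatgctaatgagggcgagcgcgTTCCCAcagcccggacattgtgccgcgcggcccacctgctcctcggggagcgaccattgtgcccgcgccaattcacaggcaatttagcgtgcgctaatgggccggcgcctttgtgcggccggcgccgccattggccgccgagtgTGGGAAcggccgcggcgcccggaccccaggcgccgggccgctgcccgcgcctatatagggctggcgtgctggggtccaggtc

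The E-box letters CAGCTG, one form of the site bound by proneural factors, occurred in 5 windows of 4 genes, *Hes6*, *Jag1*, *Dll3* and *Dll1*, and in 13.0% of all windows. These 4 genes take in the 3 lowest log2 ratios of the set, *Dll3*, *Hes6* and *Dll1*, and also *Jag1*. This was seen afterwards, and a link between the letters and the ratios was not tested. *Hes1* and *Hey1* had no window, and the other *Dll1* window held no match. The *Jag1* and *Dll3* windows overlap GENCODE exons of their own gene, and the *Dll1* window with the match overlaps an exon of *A930024N18Rik*. The 30 bases around each match are given 5′ to 3′ on the strand of the gene, with CAGCTG in capitals.
Hes6 (chr1:91414192-91414221, match at -171 to -166): cggaagcggctgCAGCTGccaactgtcacg
Hes6, second start site (chr1:91413355-91413384, -150 to -145): gctccgccccgcCAGCTGccagagacccgc
Jag1 (chr2:137116585-137116614, -82 to -77): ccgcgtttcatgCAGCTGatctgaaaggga
Dll3 (chr7:28301775-28301804, -7 to -2): tccggcatccagCAGCTGcgactcctgaga
Dll1 (chr17:15377047-15377076, -132 to -127): tgcattaccataCAGCTGagcgcacaaaga

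Sites bound by Hes and Hey proteins were read in the same way. CACGNG occurred in 6 of the 10 windows (23.5% of all windows), of *Hes6*, *Jag1*, *Notch2*, *Dll1* and *Notch3*. CACNAG, the N-box, occurred in 4 (36.7% of all), of *Hes6*, *Notch1*, *Notch2* and *Notch3*, and 1 match in *Notch3* (-204 to -199) fits both. Matches describe letters and not binding, which was not measured.

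Levels were compared between genes only per length, as CPM per kb of transcript (RPKM). In the SVZ library the order was *Hes6* (330.2 RPKM), *Hes5* (81.8), *Hes1* (75.1), *Hey1* (22.7), *Notch1* (11.4), *Jag1* (7.43), *Dll1* (5.79), *Notch2* (4.98), *Dll3* (2.32) and *Notch3* (0.650), and no neighbours in this order had overlapping Poisson intervals. In the cortex library *Hes6* led at 156 RPKM, followed by *Hes1* (5.96) and *Hey1* (5.24), whose intervals overlapped. *Dll3* (3.72) and *Dll1* (2.05) came next, ahead of *Hes5* (1.25) and *Jag1* (0.937), which overlapped each other. The receptors were lowest there, *Notch1* at 0.588 RPKM and *Notch3* (0.170) and *Notch2* (0.117) with overlapping intervals.

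The make-up of each family followed from these levels. *Notch1* held 66.9% of the receptor reads per kb in SVZ and 67.2% in cortex, whereas *Notch2* held 29.2% and 13.3% and *Notch3* 3.81% and 19.4%. Among the ligands *Jag1* led in SVZ with 47.8% and *Dll3* in cortex with 55.5%, while *Dll1* took 37.3% and 30.6%. The cortex shares rest on few reads, 180 for the receptors and 493 for the ligands. Of the effectors *Hes6* held 64.8% in SVZ and 92.6% in cortex, *Hes5* 16.0% and 0.742%, *Hes1* 14.7% and 3.55%, and *Hey1* 4.45% and 3.12%. Thus the leading gene was the same in both libraries for 2 of the 3 families.

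**Figure D3:**
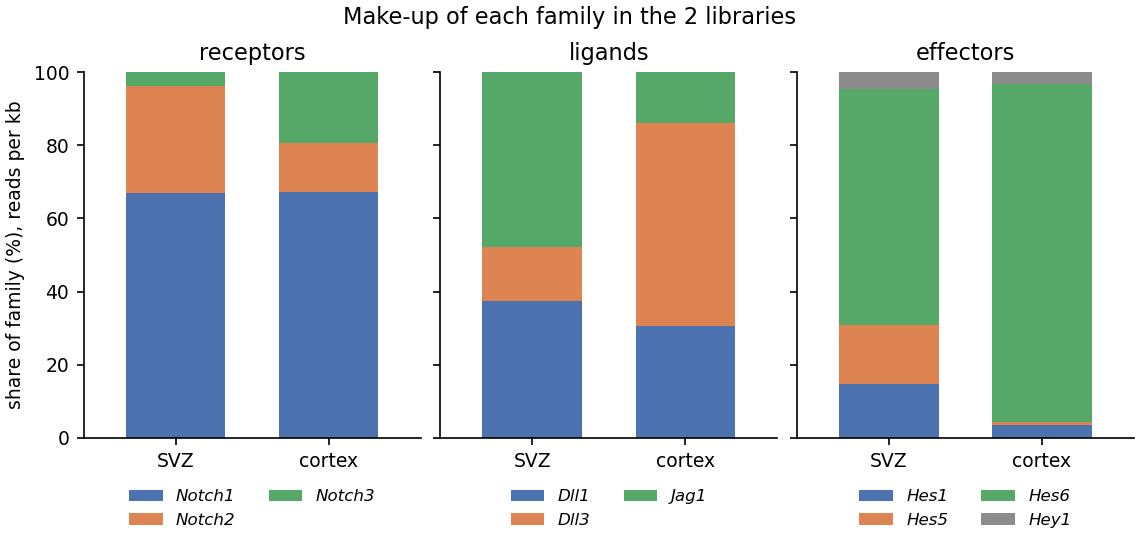
Share of each gene in the reads per kb of its family (y axis, percent from 0 to 100) in the SVZ and the cortex library, in 1 panel each for receptors, ligands and effectors. *Notch1* keeps about the same share (66.9% and 67.2%), *Dll3* widens from 14.9% to 55.5% of the ligands, and *Hes6* from 64.8% to 92.6% of the effectors.

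The rest of the pathway was then read from 10 lists of 75 genes, of which 69 reached a mean of 1 CPM. At least 2-fold higher in SVZ were 19 of the 69, against 20.0% of the 12738 genes at that level, and at least 2-fold higher in cortex were 13, against 15.6%. The median log2 ratio was -0.10 over the 69 genes and 0.11 over all 12738. The lists are described by their counts and values, with no test between them.

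Further receptors and ligands were low. *Notch4*, a receptor of endothelial cells, had 6.94 CPM in SVZ and 0.816 CPM in cortex (log2 ratio 3.09, 2.41 to 3.86). The endothelial ligand *Dll4* had 1.63 and 0.952 CPM (0.78, 0.07 to 1.54), and *Jag2*, the second Serrate-type ligand, 1.24 and 6.80 CPM, a log2 ratio of -2.45 (-2.90 to -2.02). Endothelial markers summed to 94.8 CPM in SVZ and 80.1 CPM in cortex, none at 0, with 6 of 9 higher in SVZ and a median log2 ratio of 0.26. Their part in these ratios was not tested. Of the Delta and Serrate-type ligands, *Jag2* and *Dll3* were thus the ones with more CPM in cortex.

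Ligands outside the Delta and Serrate type pointed both ways, 2 of 7 at least 2-fold higher in SVZ and 3 in cortex. *Mfap2*, a microfibril protein, had 322 and 78.6 CPM (log2 ratio 2.04) and *Cntn6* 6.67 and 2.22 CPM (1.59). The neuronal adhesion protein *Cntn1* had 10.2 and 155 CPM (-3.93), the neuronal *Dner* 22.5 and 56.3 CPM (-1.32), and *Dlk2* 1.09 and 4.04 CPM (-1.89). *Dlk1* (0.76) and *Mfap5* (-0.35, -1.03 to 0.35) lay within 2-fold. *Nov* had 0 SVZ and 23 cortex reads. With the 0 set at 3 reads it was 17.9-fold higher in cortex, its interval reaching to a log2 ratio of -3.75.

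Genes that act on the ligands and on the sugars of the receptors differed in direction. Of the ubiquitin ligases that let ligands pull on receptors, *Neurl1a* (log2 ratio -3.04), *Neurl1b* (-2.59) and *Mib2* (-1.56) were over 2-fold higher in cortex, while *Mib1* was within 2-fold (0.54, 0.23 to 0.86). The Fringe enzymes, which add sugars to the receptors and tune which ligand acts, were divided. *Mfng* had 49.3 CPM in SVZ and 1.54 CPM in cortex (log2 ratio 5.00, 4.51 to 5.53) and *Lfng* 5.07 and 0.181 CPM (4.81, 3.43 to 6.69), but *Rfng* had 23.8 and 64.7 CPM (-1.45, -1.56 to -1.33). *Pofut1*, which adds the fucose that Fringe extends, had a log2 ratio of 1.47, and *Poglut1* one of 0.77.

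Genes that cut and control the receptors were counted within 2-fold. That range held 8199 of the 12738 genes at a mean of 1 CPM, and the counts are not read as a result. Of 10 proteases and their subunits 9 lay within 2-fold, with *Adam10* (-0.16), *Ncstn* (0.31) and *Psenen* (0.66) having the highest mean CPM, and *Adam17* was highest at 1.46. *Aph1a* had the lowest ratio, -0.93, but read 0.35 (0.13 to 0.58) when stranded counts were summed, so its direction is not settled. Among 9 inhibitors and turnover genes 6 lay within 2-fold, including those of the highest mean CPM, *Fbxw7* (-0.32), *Itch* (-0.10) and *Dtx3* (-0.64). *Dtx3l* was highest at 2.15 (1.43 to 2.96) and *Dtx4* lowest at -2.30 (-2.46 to -2.14).

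In the nucleus *Rbpj* had 87.5 CPM in SVZ and 45.9 CPM in cortex (log2 ratio 0.93, 0.83 to 1.03). It was chosen after its values were seen, as the factor that all receptors share. Of the 9 activators 7 lay within 2-fold, beside 8199 of the 12738 genes at a mean of 1 CPM. Those of the highest mean CPM were *Snw1* (0.68), *Crebbp* (-0.17) and *Maml2* (-0.05). *Maml3*, one of the Mastermind coactivators, stood apart with 401 and 9 reads (4.26, 3.32 to 5.40), and *Kat2a* was lowest at -0.31. Of the 14 corepressors 9 lay within 2-fold, about the share over all genes, with *Hdac2* (-0.18), *Ncor1* (-0.12) and *Ctbp1* (-0.68) having the highest mean CPM. *Hdac1*, a deacetylase of dividing cells, was highest at 2.07 (1.94 to 2.20), and *Tle4*, a Groucho corepressor that Hes proteins recruit and a marker of deep-layer neurons, was lowest at -3.03 (-3.12 to -2.95).

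Other targets were read in few cases. *Nrarp*, a feedback inhibitor switched on by Notch, had 30.8 CPM in SVZ and 4.81 CPM in cortex (log2 ratio 2.68, 2.40 to 2.98). *Hey2* had 189 and 11 reads (2.88, 2.01 to 3.91) and *Heyl* 75 and 46 reads (-0.52, -1.07 to 0.05), for which a difference was not detectable at this depth. *Helt* had 31 SVZ reads and 0 cortex reads, 4.43-fold higher in SVZ with the 0 set at 3 reads (interval from a log2 ratio of 1.76). *Hes3* and *Hes7* had 0 SVZ reads and 7 and 8 cortex reads. With the 0 set at 3 reads they were 5.44-fold and 6.22-fold higher in cortex, their intervals reaching to log2 ratios of -1.75 and -1.99. *Hes2* was at 0 in both libraries, which allows 0.0583 CPM in SVZ and 0.136 CPM in cortex.

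The proneural factors, which *Hes1* and *Hes5* repress and which in turn switch on *Dll1*, lay on the SVZ side where measured. At least 2-fold higher there were 5 of 5, against 20.0% of the 12738 genes at a mean of 1 CPM. *Neurod4* and *Neurog1* reached that mean through the SVZ library alone. *Neurog2*, the factor of cortical projection neurons, had 154 and 2.68 CPM (log2 ratio 5.84, 5.48 to 6.24). *Neurod1* had 240.4 and 33.2 CPM (2.85, 2.75 to 2.96). *Neurod4* had 1192 SVZ reads and *Neurog1* 135, each with 0 in cortex. With the 0 set at 3 reads they were 170.3-fold and 19.3-fold higher in SVZ, their intervals starting at log2 ratios of 7.11 and 3.95. *Atoh1* was at 0 in both libraries. Markers of the ventral telencephalon and its interneurons summed to 139 CPM in SVZ and 98.1 CPM in cortex, with *Nkx2-1* at 0 in both. Of the 8 at a mean of 1 CPM or more 7 were higher in SVZ. Of these 8 markers 6 lay within 2-fold, beside 8199 of the 12738 genes, and their median log2 ratio was 0.65. *Gsx2* was highest at 4.19 and *Lhx6* lowest at -0.29 (-0.42 to -0.16). The part of these markers in the proneural and *Dll1* values was not tested.

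**Figure D4:**
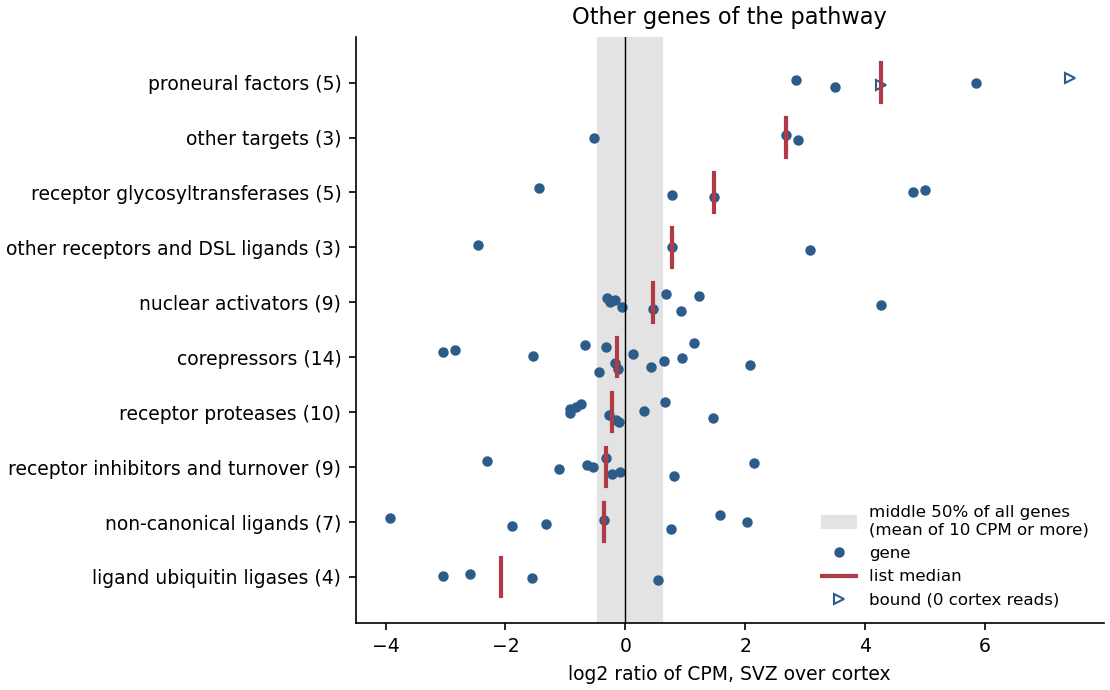
Log2 ratio of SVZ to cortex CPM of the other pathway genes that reached a mean of 1 CPM, 1 row per list with the number of genes in brackets. Points are genes, and open triangles (bound in the key) are ratios with 0 cortex reads set at 3, whose intervals start further left. Red lines are list medians and the grey band holds the middle 50% of the 9027 genes past 10 CPM. The proneural list lies wholly right of 0. Its median of 4.27 is the value of *Neurog1*, whose 0 cortex reads were set at 3, and was 2.95 with a pseudocount of 1 CPM. The proteases cluster around 0 (-0.22) and the ubiquitin ligases have the lowest median (-2.07).

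Markers of cell types outside the progenitor and neuron classes were read as well. Microglial markers (9 of 9 higher in SVZ, *Trem2* at 0 in cortex) summed to 69.8 CPM in SVZ and 6.94 CPM in cortex. Choroid plexus markers summed to 246 and 0.907 CPM, nearly all of it *Ttr*. *Folr1*, *Clic6* and *Otx2* were at 0 in cortex and *Kl* at 0 in both. Oligodendrocyte precursor markers summed to 9.33 and 11.2 CPM and meningeal markers to 4.59 and 9.39 CPM. Erythroid markers summed to 20.1 and 10.6 CPM, with 4 hemoglobin genes at 0 in both. The part of these cell types in the Notch gene values was not tested. In the stranded counts each of the 10 Notch genes had the same reads as in the unstranded counts to within 1 read. Exons of 5 of them (*Notch1*, *Notch2*, *Notch3*, *Dll1* and *Hes5*) overlap another GENCODE gene, 0 of which are in the count table, so reads of those partners would be counted with the Notch gene.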

How the data were processed

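Fresh-frozen brains at embryonic day 16.5 were cut by LCM and sequenced as 1 SVZ and 1 cortex library. Per the labels and the study's methods, the authors trimmed adapters with cutadapt 4.1, mapped read 1 to mm10 (equal to GRCm38) with STAR 2.7.9a and deposited raw counts of reads per gene, in 1 unstranded and 2 stranded columns. Duplicate removal is not given in the sources used here. Reads that map to several places or to more than 1 gene are left out by STAR, which lowers genes with near-identical copies. A further table by the authors, holding merged counts, CPM and fold changes, was not used.

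CPM was computed here from unstranded counts over the total of gene rows, without STAR's 4 summary lines (59.0% of SVZ and 59.1% of cortex reads were in genes). On this depth 1 read was worth 0.0194 CPM in SVZ and 0.0454 CPM in cortex. A 0 was replaced by 3 reads in that library. Such a ratio leaves out the counting error of the other library, which its interval holds. Genes with at most 3 reads in both libraries got no ratio. List genes needed a mean of 1 CPM. Lengths are those of the longest basic transcript in GENCODE M21, matched by symbol (96.5% of genes with a mean of 10 CPM). Named were the 10 members, all genes of lists of up to 8 genes and, in longer lists, the highest and lowest ratio and the 3 highest means. The values of 1 listed gene are not reported here. The members and lists were chosen with earlier results of these data known.

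Alternatives were scaling by TMM or the upper quartile in edgeR 4.0.16, by size factors from DESeq2 1.42.0, or by totals that left out the top 10 genes by reads, summed stranded counts, a pseudocount of 1 CPM, centring on 10 by 10 bins of length and GC content, and other minimums and folds. Code was tested on simulated data. Scaling ran in R 4.3.3. Intervals came from scipy 1.17.1 and numpy 2.4.6 under Python 3.11.15, tables from pandas 2.3.3, plots from matplotlib 3.10.9.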

Additional observations from a re-analysis of the deposited data

Results flagged for a closer look

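Stranded counts, which did not enter the ratios, held more reads than the unstranded counts for 3 genes of the lists, by at least 1.5 times and by more than the 3 reads a count of 0 allows. *Aph1a*, a subunit of the gamma-secretase that cuts Notch receptors, had 675 stranded and 221 unstranded reads in the SVZ library, and its log2 ratio moved from -0.93 to 0.35. *Pax6* had 57 stranded and 15 unstranded reads in the cortex library (log2 ratio 8.05 unstranded, 6.18 stranded). *Dlx1* had 3220 stranded and 1399 unstranded reads in SVZ and 686 and 267 in cortex (1.17 and 1.01). The cause was not tested.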

How the results depend on the processing

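No paired analysis was possible because SVZ and cortex were sequenced as 1 library each, which also leaves no replicate to drop. The direction of the ratio held for each of the 10 Notch genes under the 7 alternatives run on them, and 61 of 70 recomputed ratios stayed within the counting interval. The widest ranges were 4.58 to 5.63 for *Notch2*, 5.34 to 6.03 for *Hes5* and 1.40 to 2.39 for *Notch3*. *Hes6* ranged from 0.99 to 1.32. Counted over the 8 genes that passed the 10 CPM minimum, the 6 at least 4-fold higher in SVZ became 8 with a limit of 2-fold and 4 with one of 10-fold. They became 0 with a minimum of 100 CPM, which leaves *Hes6* alone. Most of these genes passed through the SVZ library, and no share over all genes was computed for these limits. The counts are therefore not read as support. With length and GC centring 0 genes lay beyond counting error on the cortex side, in place of *Dll3*. That centring moved the median of all genes by -0.124, and the scalings by at most -0.0988. Of the 10 pathway lists 5 had a median above 0. With a minimum of 10 CPM 6 did, and the medians of the receptor proteases and of the corepressors turned to 0.075 and 0.0087. The list of *Notch4*, *Dll4* and *Jag2*, above 0 before, had no gene left at that minimum. The median of the other targets was 0.82 with no minimum, in place of 2.68. Of 20 family shares 14 moved beyond the counting interval when raw reads replaced reads per kb, while the number of families led by the same gene in both libraries stayed 2. Depth limits the cortex side most: *Notch2* had 27, *Notch3* 30 and *Hes5* 35 reads there, and no replicate stands behind any value.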
